A study of Homo sapiens with 20 samples.

Results

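UHO-1 and SUP-HD1 are established cell lines of classical Hodgkin lymphoma, and their RNA was compared in cells that had received ethanol vehicle alone. The comparison used the 4 arrays, of 20 in the series, whose titles name these lines and the control treatment, which gave 2 arrays of UHO-1 and 2 of SUP-HD1. Both lines stably expressed FOXO1(3A)ER, a constitutively active FOXO1 mutant whose activity waits on a tamoxifen-type drug, since it is fused to an oestrogen receptor's hormone-binding part. Both were grown in RPMI1640 medium with fetal calf serum, and RNA was taken after 24 h with ethanol. The series as a whole asked what the fusion protein does in 5 such lines once 4-hydroxytamoxifen (4-OHT) is added. None of that drug was present in the arrays compared here, but the fusion protein was carried by every cell, and parental cells without it were not analysed here. The labels give neither the promoter that drives the fusion gene nor whether each line was a clone or a pool. Each line is a single tumour's descendant, so the 2 arrays of a line describe that line and not a class of tumours. The labels do not say that the 2 arrays came from separate cultures of these lines, so p-values measure only the spread between arrays, which may be technical.

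Hodgkin and Reed-Sternberg cells, the tumour cells from which such lines derive, come from B lymphocytes but have lost much of the B cell programme. They carry the surface receptor CD30 (TNFRSF8), secrete chemokines such as CCL17 and CCL22 that draw T cells, and are known for constant NF-kB and JAK-STAT signalling. In lymphoid cells, interferons act through JAK kinases and STAT factors to induce a large set of antiviral genes, many of which carry an interferon-stimulated response element in their promoters.

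Values are log2 expression values, so 1 unit is a 2-fold difference, and every difference below is UHO-1 minus SUP-HD1. The 12 arrays of UHO-1, SUP-HD1 and L1236 had been normalised together, and the medians of their vehicle arrays ran from 6.26 to 6.38. Repeat arrays of UHO-1 differed by an SD of 0.14 log2 units over genes and those of SUP-HD1 by 0.19. Arrays have no read depth, and their number limits the precision. All 10 fixed Hodgkin cell markers had a mean of at least 6 in both lines, and 10 in UHO-1 and 7 in SUP-HD1 had a mean of at least 8. The 10 genes summed to 14.28 and 14.21 on the log2 scale in UHO-1 and to 13.50 and 13.53 in SUP-HD1. Of 8 T cell markers only CD7 reached 8 in either line, and no NK cell, myeloid or stromal marker did. The level of 6 lay just below the array medians. In UHO-1 it was reached by 2 of 8 T cell and 3 of 6 NK cell markers. It was also reached there by 2 of 6 myeloid and 3 of 7 stromal markers. In SUP-HD1 the counts were 2, 2, 2 and 3, so a mean of 6 alone does not mark a cell type. Of the 5 B cell markers with a probe set, only PAX5 reached 8, and MS4A1 (CD20) lay below the floor with 4.15 and 4.29 in UHO-1 and 3.91 and 4.09 in SUP-HD1.

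The FOXO1 probe set read 10.36 and 10.41 in UHO-1 and 10.27 and 10.46 in SUP-HD1. The arrays overlapped, and the difference of 0.02 ± 0.07 (SE, n = 2 and 2) did not pass the test (limma, adjusted p = 0.841). Whether this probe set reads the native transcript, the fusion transcript or both was not determined. ESR1, the oestrogen receptor, read 5.59 and 5.85 in UHO-1 and 6.97 and 6.69 in SUP-HD1, a difference of -1.11 ± 0.13. Its other, dimmer probe set differed by -0.01, so the ESR1 value rests on the choice of probe set.

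A large share of the genes differed between the lines. Of 15174 genes tested, 8308 (54.8%) passed at an adjusted p below 0.05 (limma, Benjamini-Hochberg), 4131 (27.2%) of them higher and 4177 (27.5%) lower in UHO-1. Such genes are called below. Among all genes the median difference was 0.05 and the median size 0.29, so many calls were small. Calls of at least 1 log2 unit numbered 2337 (15.4%), with 1122 (7.39%) higher and 1215 (8.01%) lower in UHO-1, and these shares are the background for every count of large differences below. For counts of calls of any size the background is 54.8%, with 27.2% higher and 27.5% lower. Differences of at least 4 log2 units were found in 148 genes, 84 higher and 64 lower. On the same measure UHO-1 differed from L1236, another line of the series, in 2777 of 15276 genes (18.2%), and SUP-HD1 from L1236 in 3193 of 15225 (21%). These pairs share arrays with the main comparison. L1236 read above both lines for 21 of 27 T and NK cell markers and below both for 4. In it CD3E read 12.22 and LCK 10.22 on average. Of 29 Hodgkin markers, L1236 read below both lines for 26 and above both for 0. It is thus a reference of unlike marker profile wherever it is named below.

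**Figure D1:**
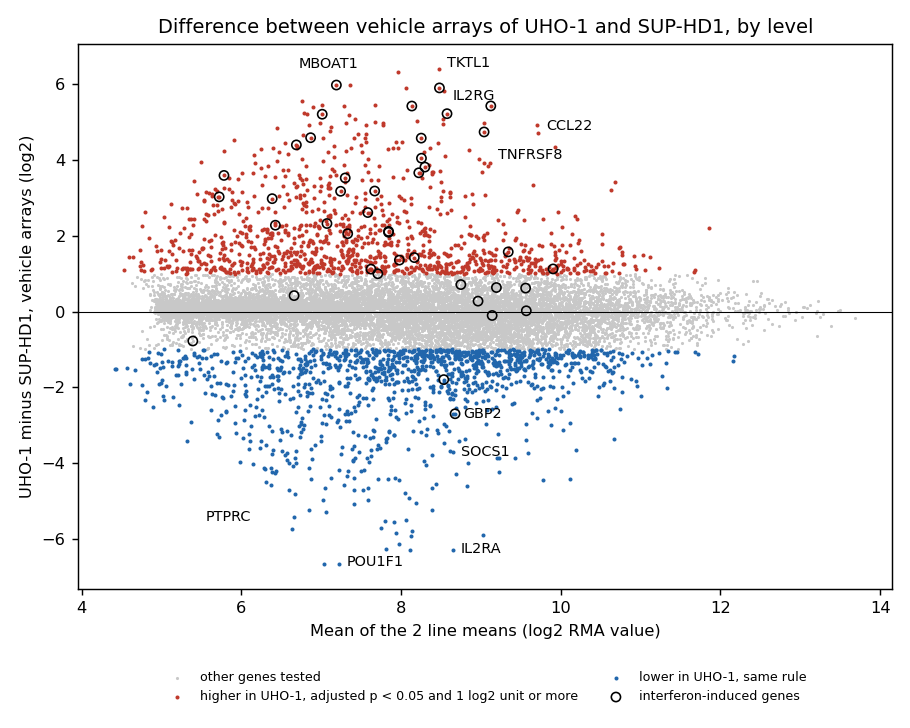
Difference between the vehicle arrays of UHO-1 and SUP-HD1 (vertical axis, log2) against the mean of the line means (horizontal axis, log2 value), 1 point per gene tested. Red and blue points mark calls of at least 1 log2 unit, and open circles mark interferon-induced genes, most of which lie among the red points.

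In UHO-1 the largest excess belonged to TKTL1, a transketolase-like enzyme, which read 11.74 and 11.64 in UHO-1 and 5.14 and 5.41 in SUP-HD1. MBOAT1, an acyltransferase of membrane lipids, read 11.16 and 11.09 against 4.70 and 4.91. ZNF737, a zinc finger gene, read 10.40 and 10.29 against 4.48 and 4.27. In all of these genes SUP-HD1 lay near the level of 5 that served as the floor for testing, so each was high in UHO-1 and close to background in SUP-HD1. The differences were 6.41 ± 0.11 for TKTL1, 6.32 ± 0.09 for MBOAT1 and 5.98 ± 0.09 for ZNF737 (SE, n = 2 and 2), with adjusted p-values of 4.29e-17, 4.9e-18 and 8.27e-18 from limma.

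The cancer-testis antigens MAGEA4 and MAGEB2, which normal tissue makes mainly in the germ line, were also among the 15 genes of largest excess. MAGEA4 read 11.00 and 11.04 in UHO-1 and 4.91 and 5.31 in SUP-HD1, and MAGEB2 read 9.79 and 9.70 against 4.32 and 4.24. L1236 read 5.06 and 4.08 for these genes on average, so both antigens were high in UHO-1 alone among the 3 lines. Of 37 cancer-testis antigens with a probe set, 16 passed the floor and were tested. Of these, 4 were higher in UHO-1 by at least 1 log2 unit and 0 were lower by that much. The others of that size were TEX15 (difference 2.72) and DDX43 (2.33). All 4 passed the floor through their UHO-1 values, so their count among the 16 is no support for a lean of the list. The rest of the leading 15 included the adhesion molecules ALCAM (5.47) and JAML (5.44), the tryptophan-pathway enzyme KYNU (5.40), the non-coding RNA LINC00221 (5.57) and 4 interferon-induced genes described below.

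The largest excess in SUP-HD1 belonged to POU1F1, a homeodomain factor known from the pituitary. It read 10.72 and 10.39 in SUP-HD1 and 3.86 and 3.91 in UHO-1, a difference of -6.67 ± 0.12 (SE, n = 2 and 2; limma, adjusted p = 5.57e-17). SPX, a peptide hormone gene, read 10.44 and 10.31 against 3.58 and 3.83. PRG4, the joint lubricant lubricin, read 11.33 and 11.20 against 4.88 and 5.04. CH25H, which hydroxylates cholesterol to an oxysterol, read 10.93 and 10.97 against 4.74 and 4.62, and ENPP2 (autotaxin), which makes lysophosphatidic acid, read 12.02 and 11.94 against 6.22 and 5.93. These are genes of secreted products, lipid messengers and a tissue factor outside the B lineage, and they were high on both SUP-HD1 arrays. The other genes of the 15 were IL2RA, ALPK2, KCNJ2, GTSF1, VGLL3, TMEM100, SIM1, TIMP4, COL6A5 and KRT75, with differences from -6.29 to -5.50. In L1236 the mean was below 6 for each of the 15.

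**Figure D2:**
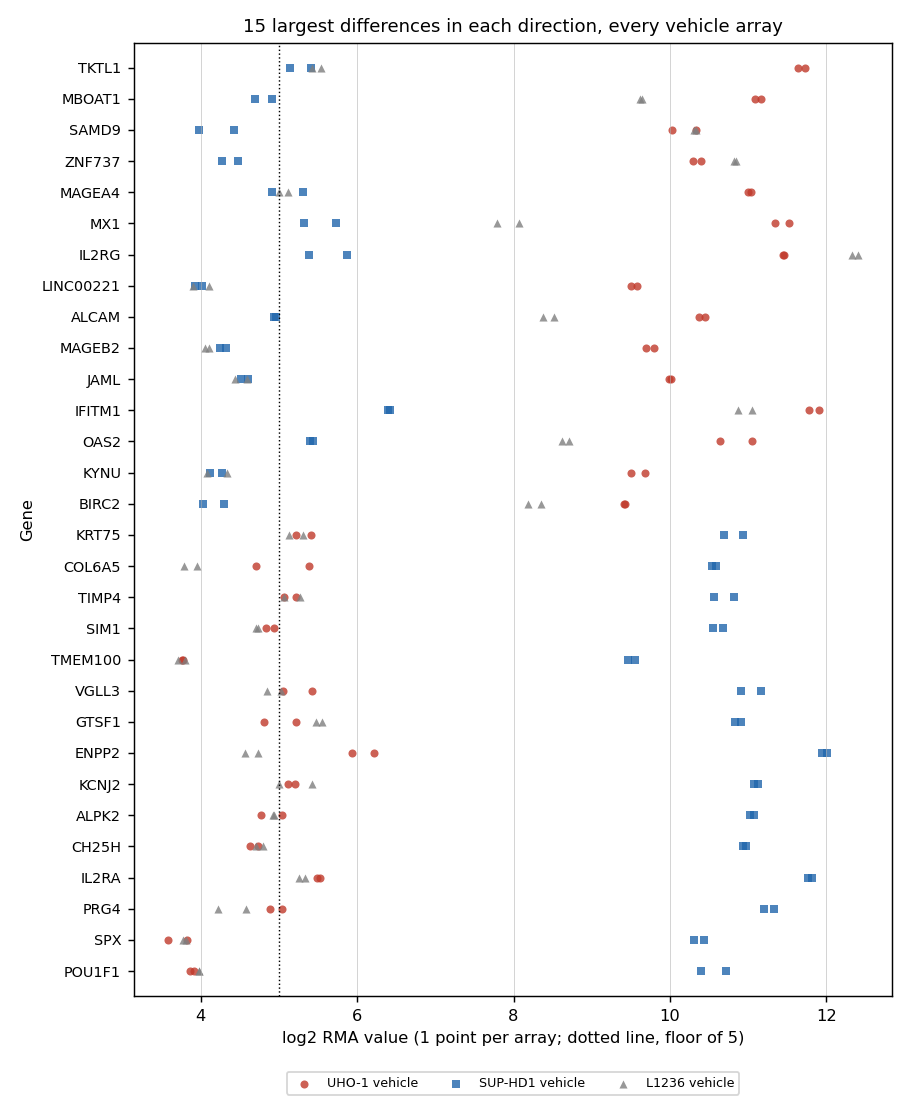
Log2 value on every vehicle array of UHO-1 (circles), SUP-HD1 (squares) and L1236 (triangles) for the 15 largest differences in each direction. The repeat arrays of a line lie close together against mean differences of 5.26 log2 units or more between UHO-1 and SUP-HD1.

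Taking a gene as restricted to a line where both its arrays read at least 8 and both of the other line's arrays read below 6, 131 genes were restricted to UHO-1 and 112 to SUP-HD1. Of the 131, L1236 read at least 8 on both arrays for 55 and below 6 for 51. Of the 112, it read at least 8 for 26 and below 6 for 69.

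Parts of the Hodgkin phenotype were unequal between the lines. Of 29 Hodgkin markers tested, both arrays read at least 8 for 28 in UHO-1 and for 24 in SUP-HD1. TNFRSF8 (CD30), the diagnostic surface receptor, read 11.12 and 11.02 in UHO-1 and 7.08 and 7.21 in SUP-HD1. CCL22, a chemokine for T cells that carry CCR4, read 12.13 and 12.01 against 7.37 and 7.37. CCL17, which binds the same receptor, read 9.98 and 9.76 against 7.86 and 7.78. Each was higher on both UHO-1 arrays, by 3.93 ± 0.10, 4.70 ± 0.10 and 2.05 ± 0.11 log2 units (SE, n = 2 and 2), with adjusted p-values of 2.5e-15, 3.19e-16 and 3.27e-11 from limma. The difference in CD30 was 15.2-fold. CCR4 itself, the receptor of both chemokines, read 9.23 and 8.79 in UHO-1 and 5.19 and 5.41 in SUP-HD1.

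Other members of the phenotype were close or ran in either direction. IRF4, a transcription factor of activated B cells, read 12.17 and 12.24 in UHO-1 and 12.11 and 12.13 in SUP-HD1, and FUT4, which makes the CD15 epitope, read 8.33 and 8.31 against 8.08 and 8.34. The differences of 0.09 ± 0.09 and 0.11 ± 0.10 did not pass the test (limma, adjusted p = 0.462 and 0.362). ID2 and MSC, repressors of the B cell programme, were lower in UHO-1, with differences of -0.55 and -0.64. IL13, a growth factor of Hodgkin cells, read 10.57 and 10.53 in SUP-HD1 and 7.46 and 7.69 in UHO-1. Over the whole list of 29 Hodgkin markers tested, 13 were higher and 11 lower in UHO-1, 7 and 4 of them by at least 1 log2 unit, and the median difference was 0.11 against 0.05 over all genes. TNFAIP2 (2.62) was among the 4 largest of the list, next to CCL22, TNFRSF8 and IL13. CD83, an activation marker singled out after its values were seen, read 11.05 and 10.95 in UHO-1 against 8.58 and 8.53.

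Among B cell genes the transcription factor PAX5 differed little, and PTPRC and BANK1 differed greatly. PAX5 read 9.76 and 9.68 in UHO-1 and 9.55 and 9.29 in SUP-HD1, a difference of 0.29 ± 0.10 (SE, n = 2 and 2; limma, adjusted p = 0.0164) that lost its call when SUP-HD1 replicate 2 was left out (0.16, adjusted p = 0.231) and when UHO-1 replicate 1 was (0.26, adjusted p = 0.105). PTPRC (CD45), the phosphatase of nearly all white blood cells, read 3.95 and 3.93 in UHO-1 and 9.43 and 9.31 in SUP-HD1, so UHO-1 lay below the floor of 5. L1236, whose arrays were high for T cell markers, read 11.10 on average. UHO-1 thus lay below both other lines for PTPRC, though L1236 is not a line of like marker profile. BANK1, an adaptor of B cell receptor signalling, read 4.11 and 4.01 against 8.77 and 8.35. The coactivator POU2AF1 read 5.77 and 5.67 against 8.13 and 8.36. MEF2C and the tetraspanin CD53 ran the other way, MEF2C with 10.89 and 10.82 in UHO-1 against 7.20 and 7.17, and CD53 with 9.63 and 9.62 against 5.45 and 5.36. The receptor chain CD79A was lower in UHO-1 (-0.52), and CD79B (0.01 ± 0.14, adjusted p = 0.945) did not pass. Of 27 B cell identity genes tested, 10 were higher and 7 lower in UHO-1, 3 and 5 of them by at least 1 log2 unit. The share called was 63%, against 54.8% of all genes.

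Some other regulators of B cell fate differed little. SPIB was higher in UHO-1 by 0.51 ± 0.12 and BCL6, the germinal centre repressor, by 0.18 ± 0.07 (adjusted p = 0.0475 in limma, lost without any 1 of the 4 arrays, 0.075 to 0.175). POU2F2 (0.27, adjusted p = 0.0889) and the plasma cell factor PRDM1 (0.26, adjusted p = 0.0812) did not pass. IRF8, a factor of B cells and germinal centres singled out after its values were seen, read 5.76 and 5.74 in UHO-1 against 10.21 and 10.19 in SUP-HD1, a difference of -4.45 ± 0.11 (SE, n = 2 and 2; limma, adjusted p = 7.34e-16). The germinal centre list was less even. RGS13, a brake on chemokine receptor signals in germinal centre B cells, read 10.01 and 9.83 in SUP-HD1 and 5.34 and 5.16 in UHO-1, and GCSAM read 10.23 and 9.90 against 7.15 and 6.96. Of 15 genes tested in that list, 5 were lower and 2 higher in UHO-1 by at least 1 log2 unit, the higher ones being SSBP2 (2.09) and CD38 (1.31).

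Between cell surface and nucleus, PI3-kinase chains separated the lines. PIK3CD, a catalytic chain used in lymphocytes, read 9.86 and 9.72 in UHO-1 and 6.19 and 6.33 in SUP-HD1. PIK3CG, its relative coupled to G proteins, read 5.18 and 5.12 against 9.57 and 9.44. INPP5D (SHIP1), a phosphatase of the same lipid messenger, read 9.99 and 9.89 against 6.22 and 6.20. A different catalytic chain was therefore high in each line, with differences of 3.53 ± 0.10 and -4.35 ± 0.08 (SE, n = 2 and 2; limma, adjusted p = 4.74e-15 and 7.29e-17). Of 22 B cell receptor kinases and adaptors tested, 6 were higher and 3 lower in UHO-1 by at least 1 log2 unit, and VAV2 (2.97), an exchange factor, was among the higher.

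Interferon-induced genes had the largest share of large differences and the largest median difference among the 39 lists. Of 44 with a probe set, 41 passed the floor and were tested. Among the 41, 36 were higher and 3 lower in UHO-1. By at least 1 log2 unit 30 were higher and 2 lower, 78% of those tested against 15.4% of all genes. Some, such as SAMD9, passed the floor only through their UHO-1 values, so this share describes the genes that passed. Without a floor the counts of that size were also 30 and 2. The median difference was 2.32, against 0.05 over all genes. Across the 41 genes, the median level was 8.92 and 9.20 on the UHO-1 arrays, 6.40 and 6.32 on the SUP-HD1 arrays and 8.36 and 8.58 on the L1236 arrays. L1236 thus lay nearer to UHO-1 in this group. UHO-1 replicate 2 read above replicate 1 in 37 of the 41 genes, with a median step of 0.24 against -0.02 over all genes. The count of genes higher by at least 1 log2 unit was 30 without that array and 31 without UHO-1 replicate 1.

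MX1, a GTPase that blocks viral replication, read 11.35 and 11.52 in UHO-1 and 5.32 and 5.74 in SUP-HD1. SAMD9, an antiviral restriction factor, read 10.02 and 10.34 against 4.42 and 3.97. IFITM1, which hinders the entry of viruses into cells, read 11.78 and 11.90 against 6.40 and 6.42, and OAS2, which makes the activator of RNase L, read 10.64 and 11.05 against 5.40 and 5.44. For each of these genes the lower UHO-1 array stood more than 5 log2 units above the higher SUP-HD1 array. The differences were 5.91 ± 0.13, 5.98 ± 0.14, 5.43 ± 0.07 and 5.43 ± 0.14 (SE, n = 2 and 2), with adjusted p-values of 4.24e-16, 6.84e-16, 2.41e-18 and 2.79e-15 in limma.

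The 3 genes lower in UHO-1 were GBP2, PARP9 and GBP4. GBP2, a guanylate-binding protein known for strong induction by interferon gamma, read 7.25 and 7.40 in UHO-1 and 10.03 and 10.03 in SUP-HD1. PARP9 read 7.50 and 7.77 against 9.45 and 9.42. GBP4 differed by -0.78 ± 0.13 near the floor. IRF1 (-0.10, adjusted p = 0.294) and PARP14 (0.02, adjusted p = 0.893) did not pass. IRF9, a factor that takes part in the response to interferon, was higher in UHO-1 by 0.62.

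**Figure D3:**
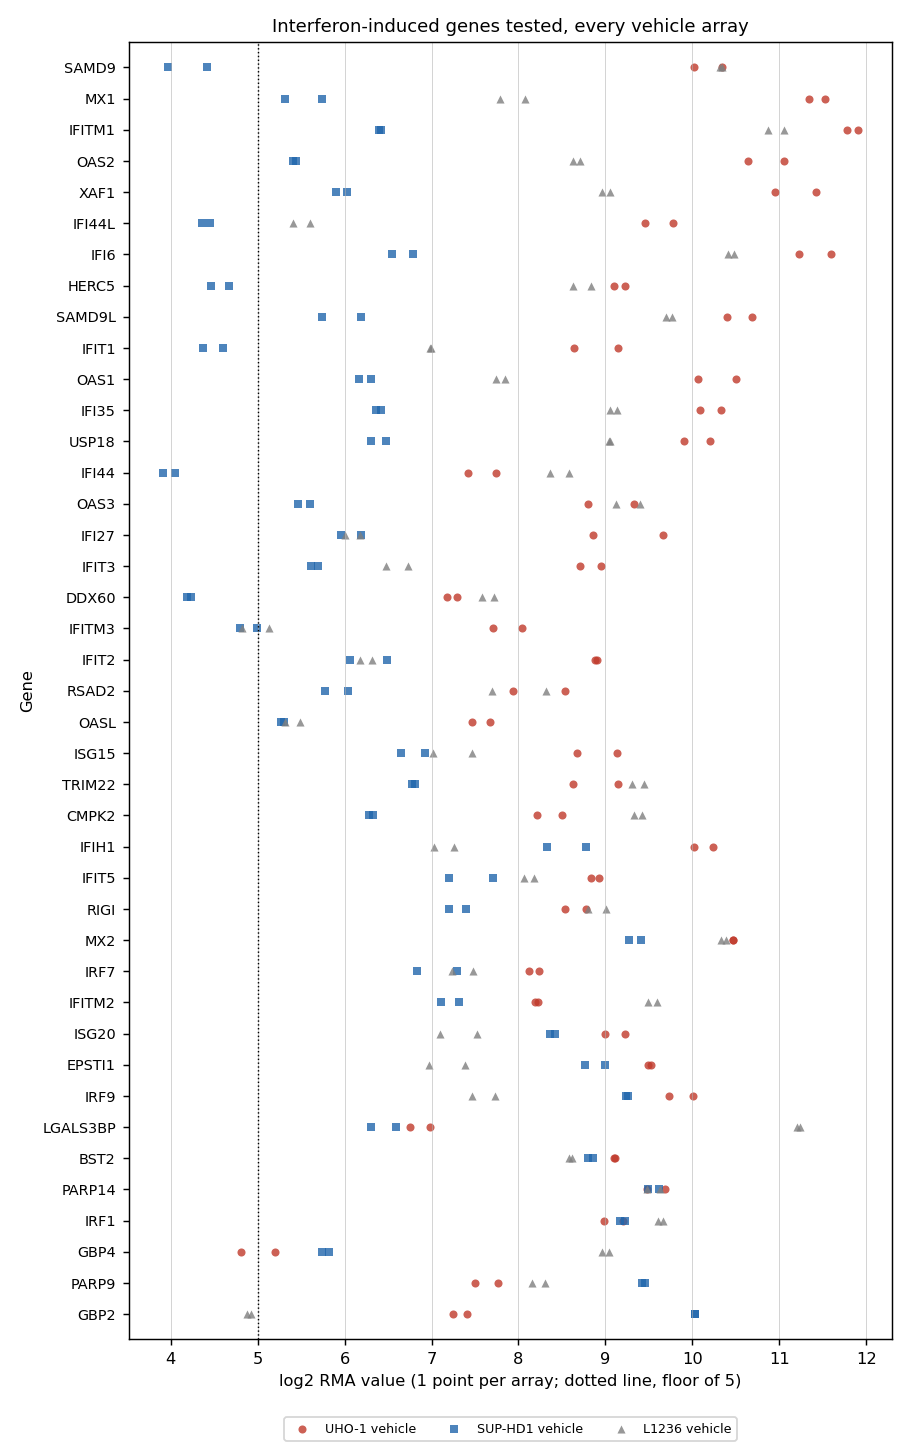
Log2 value on every vehicle array of UHO-1 (circles), SUP-HD1 (squares) and L1236 (triangles) for the 41 interferon-induced genes tested, ordered by the difference between UHO-1 and SUP-HD1. SUP-HD1 lies to the left for 36 genes, and GBP4, PARP9 and GBP2 at the bottom run the other way.

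Promoter sequences from RefSeq (GRCh38.p14), 250 bases before to 50 after the start of each gene, were matched for 32 of the 41 genes. The core of the interferon-stimulated response element, GAAANNGAAA on either strand, with overlapping matches counted, was present in 22 of the 32 (68.8%). Among all genes tested that had a promoter it was present in 325 of 11840 (2.74%). In the whole promoter table it was present in 996 of 27305 (3.65%). Of the listed genes higher in UHO-1 by at least 1 log2 unit, 16 of 23 (69.6%) held it. These 23 are most of the 32, so the likeness of their shares was largely fixed in advance. The list was made of genes known to answer interferon, for which this element is textbook knowledge. The element is printed for 4 genes, chosen after their values and sequences were seen because all matches lie in the 150 bases shown, with the matches in capitals. They are SAMD9 (chr7:93117980-93118129, minus strand), HERC5 (chr4:88456969-88457118, plus strand), IFIT1 (chr10:89392473-89392622, plus strand) and ISG15 (chr1:1013347-1013496, plus strand), each written 5′ to 3′ and ending at the base before the gene's start.
SAMD9: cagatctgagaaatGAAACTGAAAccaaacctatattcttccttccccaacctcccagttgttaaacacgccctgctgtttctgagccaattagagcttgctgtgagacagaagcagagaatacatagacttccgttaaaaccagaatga
HERC5: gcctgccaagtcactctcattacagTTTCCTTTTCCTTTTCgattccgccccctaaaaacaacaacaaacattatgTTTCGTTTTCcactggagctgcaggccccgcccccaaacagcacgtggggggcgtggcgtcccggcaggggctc
IFIT1: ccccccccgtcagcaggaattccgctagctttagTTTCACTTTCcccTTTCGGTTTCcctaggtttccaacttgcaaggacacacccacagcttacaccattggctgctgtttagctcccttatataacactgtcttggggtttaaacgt
ISG15: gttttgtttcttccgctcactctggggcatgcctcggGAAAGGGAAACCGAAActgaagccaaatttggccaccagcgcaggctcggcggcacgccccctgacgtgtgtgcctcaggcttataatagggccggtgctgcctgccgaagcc

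HERC5, the ligase that joins the ubiquitin-like protein ISG15 to its targets, read 9.10 and 9.22 in UHO-1 and 4.47 and 4.67 in SUP-HD1. IFIT1, which binds viral RNA lacking a host cap, read 8.64 and 9.14 against 4.38 and 4.60. ISG15 itself read 8.68 and 9.13 against 6.65 and 6.92. In HERC5 and ISG15 neighbouring matches overlap, which is why their capitals run on beyond a single element.

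Receptors and adaptors of innate sensing were split between the lines. STING1, the adaptor that answers cytosolic DNA and leads to interferon, read 10.68 and 10.53 in UHO-1 and 6.33 and 6.64 in SUP-HD1. AIM2, which also binds cytosolic DNA but leads to an inflammasome, read 4.47 and 4.59 against 9.61 and 9.44. TLR6, a receptor of bacterial lipopeptides, read 4.12 and 4.41 against 8.70 and 8.32. UHO-1 was thus high for STING1 and near or below the floor for AIM2 and TLR6, with differences of 4.12 ± 0.12, -4.99 ± 0.11 and -4.24 ± 0.15 (SE, n = 2 and 2; limma, adjusted p = 5.78e-15, 4.24e-16 and 1.18e-13). Of 28 pattern receptors and adaptors with a probe set, 18 passed the floor and were tested. Of these, 6 were higher and 5 lower in UHO-1 by at least 1 log2 unit, 61.1% of those tested. Some, such as AIM2 and TLR6, passed only through their SUP-HD1 values, so this share describes the genes that passed.

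The chains of the interleukin 2 receptor were divided between the lines. IL2RA (CD25), the chain that raises affinity for the cytokine, read 11.82 and 11.77 in SUP-HD1 and 5.53 and 5.48 in UHO-1. IL2RB, the beta chain shared with interleukin 15, read 12.37 and 12.30 against 8.03 and 7.76. IL2RG, the common gamma chain of several cytokine receptors, read 5.39 and 5.86 in SUP-HD1 but 11.46 and 11.45 in UHO-1 and 12.37 on average in L1236. SUP-HD1 was therefore high for the alpha and beta chains and near the floor for the gamma chain, and UHO-1 was high for the gamma chain and near the floor for the alpha chain. The differences were -6.29 ± 0.12, -4.44 ± 0.09 and 5.83 ± 0.10 (SE, n = 2 and 2), with adjusted p-values of 1.1e-16, 1.1e-16 and 4.29e-17 in limma.

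Receptors of interleukin 1 and interleukin 17 also differed. IL1R1, the signalling receptor, read 10.50 and 10.18 in SUP-HD1 and 6.38 and 6.19 in UHO-1, and the decoy receptor IL1R2 read 10.88 and 10.79 against 6.83 and 6.85. IL17RB, the chain that binds interleukin 25, read 8.59 and 8.19 in UHO-1 against 4.05 and 4.16. Of 51 cytokine receptor chains with a probe set, 41 passed the floor and were tested. Of these, 12 were lower and 6 higher in UHO-1 by at least 1 log2 unit, 43.9% against 15.4% of all genes. Some, such as IL17RB, passed only through the line where they were high, so the share describes the genes that passed.

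SOCS1 and PTPN1, which restrain JAK-STAT signalling, were higher in SUP-HD1, while the genes of the pathway's list ran in both directions. SOCS1, which shuts off JAK kinases, read 10.42 and 10.60 in SUP-HD1 and 6.97 and 6.62 in UHO-1. The phosphatase PTPN1 read 10.53 and 10.45 against 7.27 and 6.95. The kinase JAK2 itself was higher in SUP-HD1 too, with 9.71 and 9.63 against 8.03 and 7.92. The differences were -3.71 ± 0.12, -3.38 ± 0.08 and -1.70 ± 0.12 (SE, n = 2 and 2; limma, adjusted p = 2.08e-14, 1.26e-15 and 1.27e-09). STAT5A, a factor activated by several cytokine receptors, was higher in UHO-1 by 2.04. Of 29 genes tested in the list, 10 were higher and 12 lower in UHO-1, 2 and 5 of them by at least 1 log2 unit, and the median difference was -0.03.

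The NF-kB pathway differed most in its regulators and in some targets. BIRC2 (cIAP1), a ubiquitin ligase, read 9.42 and 9.41 in UHO-1 and 4.29 and 4.03 in SUP-HD1, and L1236 read 8.27 on average. TRAF3, which works with BIRC2 to destroy the kinase of the alternative pathway, read 9.23 and 9.16 in SUP-HD1 but 5.62 and 5.54 in UHO-1. Each line was thus low for a different member of the same degradation complex, by 5.26 ± 0.11 for BIRC2 and by -3.62 ± 0.11 for TRAF3 (SE, n = 2 and 2; limma, adjusted p = 2.05e-16 and 2.08e-14). The protease PLAU, a target gene, read 11.09 and 11.04 in UHO-1 against 5.90 and 6.06. The inhibitors differed less: TNFAIP3 (A20) was lower in UHO-1 (-0.68) and NFKBIA (-0.10, adjusted p = 0.109) did not pass in the main test. Among genes outside the naming rule and singled out after their values were seen, REL, a subunit of the factor, read 12.29 and 12.19 in UHO-1 against 9.12 and 8.93. Of 39 genes tested, 17 were higher and 11 lower, 7 and 3 of them by at least 1 log2 unit.

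Surface molecules that meet T cells and stroma also separated the lines. CD274 (PD-L1), the ligand that restrains T cells, read 11.91 and 11.80 in SUP-HD1 and 10.12 and 9.93 in UHO-1, and was thus above 8 on all 4 arrays and lower in UHO-1, with a difference of -1.83. CD58, which binds CD2 on T cells and NK cells, read 8.63 and 8.50 in UHO-1 against 5.23 and 5.28. CD4 read 10.21 and 10.15 in UHO-1 against 5.73 and 5.68, while CD3G, a marker of T cells proper, read 5.35 and 6.30 against 4.58 and 4.80. In L1236 CD3G read 11.91 on average. CD3G was called (1.14) but lost its call without UHO-1 replicate 2 (0.66, adjusted p = 0.163 in limma). The integrin chain ITGA4 read 10.10 and 10.05 in SUP-HD1 against 5.11 and 5.09, CD44 read 9.56 and 9.53 against 6.30 and 6.27, and the receptor CXCR4 read 11.26 and 11.06 against 8.51 and 8.54. N-cadherin (CDH2) ran the other way, with 9.57 and 9.44 in UHO-1 against 4.81 and 4.64. Of 33 checkpoint and adhesion ligands tested, 6 were higher and 8 lower by at least 1 log2 unit, and ULBP1 (-3.24), RAET1L (-2.37) and HHLA2 (-4.08) were among the lower.

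Antigen presentation leaned in opposite ways for its classes. HLA-DQB1, a class II chain, read 8.12 and 8.44 in SUP-HD1 and 4.41 and 4.59 in UHO-1, and HLA-DQA1 read 9.61 and 9.20 against 6.71 and 6.72. The class II coactivator CIITA was lower in UHO-1 (-0.63 ± 0.14). Of 15 class II genes tested, 9 were lower and 3 higher in UHO-1 (median difference -0.58), with 3 and 1 of them by at least 1 log2 unit, CTSS (1.16) being the higher one. Of 15 class I and peptide loading genes, 10 were higher and 4 lower (median 0.75), led by the immunoproteasome chain PSMB8 (1.46). By at least 1 log2 unit 4 were higher and only the coactivator NLRC5 (-1.21) was lower. The classical class I chains, HLA-DRA and CD74 had no probe set of their own and were not analysed here, and HLA alleles that match the probes unequally can move such values.

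Mitosis genes leaned to SUP-HD1, and replication genes did not. CENPF, a kinetochore protein, read 10.93 and 10.97 in SUP-HD1 and 9.30 and 9.18 in UHO-1. The mitotic kinase PLK1 read 11.38 and 11.40 against 9.88 and 9.83, and the spindle protein ASPM read 10.02 and 9.96 against 8.54 and 8.49. All of these arrays were separated by line, as they were in 34.9% of all genes with UHO-1 below and in 39.7% with UHO-1 above. The differences were -1.71 ± 0.07, -1.54 ± 0.06 and -1.48 ± 0.07 (SE, n = 2 and 2; limma, adjusted p = 7.35e-13, 4.68e-13 and 5.42e-12). Of 37 mitosis genes tested, 27 were lower and 5 higher in UHO-1 (median -0.58), and 8 were lower by at least 1 log2 unit against 0 higher. Of 37 DNA replication genes, 18 were higher and 7 lower (median 0.22), and only RRM2 (1.08) and CDC6 (1.02) differed by at least 1 log2 unit. In RNA of a whole culture, fewer dividing cells and less RNA per cell cannot be told apart.

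Growth and survival genes gave smaller or mixed differences. MYC read 10.97 and 10.77 in UHO-1 and 10.22 and 10.30 in SUP-HD1 (0.61 ± 0.08), and of 32 MYC and ribosome biogenesis genes 0 differed by at least 1 log2 unit. In limma 13 were called higher and 6 lower, a share of 59.4% near the 54.8% of all genes. Of 21 BCL2 family genes tested, 9 were higher and 4 lower in UHO-1 (61.9% called), with 4 and 1 of them by at least 1 log2 unit. BCL2A1 (2.90), BCL2L11 (2.21) and BCL2L1 (1.88) were among the higher, and PMAIP1 (-1.61) and BCL2 itself (-0.95) among the lower. TP73, a p53 relative, read 10.32 and 10.18 in UHO-1 against 6.45 and 6.67. CDKN2A was called higher by 0.35 (adjusted p = 0.0182), a call lost without either UHO-1 array or SUP-HD1 replicate 1 (0.0618 to 0.0903). Of 49 receptor tyrosine kinases and ligands tested, 8 were higher and 9 lower by at least 1 log2 unit. DDR2, a collagen receptor, read 11.42 and 11.34 in SUP-HD1 against 8.37 and 8.39, and the neurotrophin receptors NTRK2 (-3.68) and NTRK3 (-3.29) were lower in UHO-1, while KITLG (2.63) was higher. A list titled lineage-inappropriate regulators held 41 genes tested, not all of them absent from B cells. In it NOTCH1 (1.56), RUNX3 (2.05), JAG2 (2.30) and ID3 (3.84) were among the 7 higher by at least 1 log2 unit. JAG1 (-2.06) was among the 4 lower, and GATA3 was higher by 0.52.

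Some lists held fewer large differences than the 15.4% of all genes, and others lay near it. By at least 1 log2 unit, 2 of 30 collagens differed (6.67%, COL6A3 and COL4A5), 2 of 21 plasma cell and secretory genes (9.52%) and 1 of 24 housekeeping genes (4.17%, REEP5 with -1.07). The T and NK cell markers (14.8%) and the myeloid and dendritic cell markers (15%) were near the share of all genes. The list of FOXO factors and FOXO-induced targets lay above that share. Of its 32 genes tested, 2 were higher and 6 lower by at least 1 log2 unit (25%). CBLB (-2.32), TRIB1 (-1.92), IL7R (-1.67) and BCL2L11 (2.21) were the largest.

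**Figure D4:**
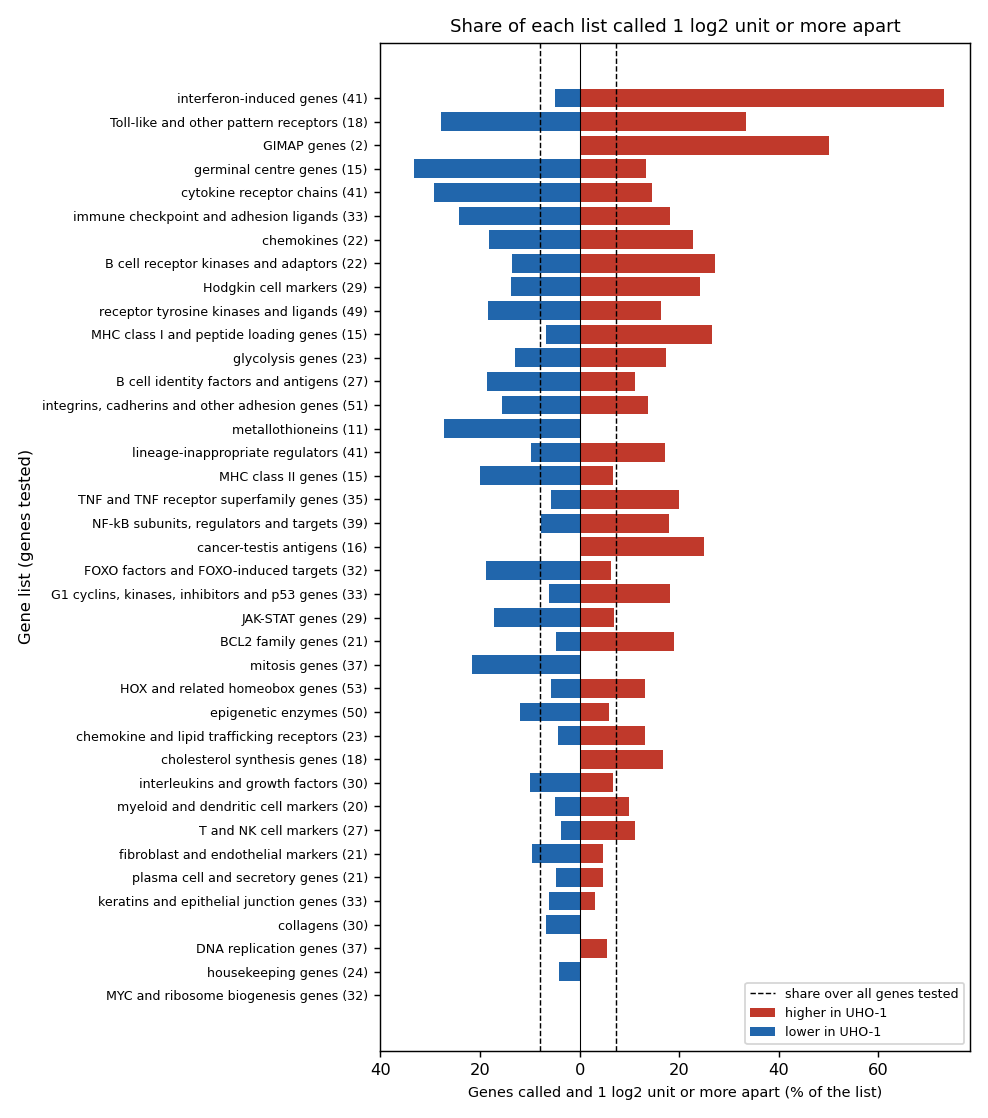
Share of the genes tested in each of 39 lists that were called and differed by at least 1 log2 unit (horizontal axis, percent), higher in UHO-1 to the right and lower to the left. Dashed lines mark the shares over all genes tested, 7.39% higher and 8.01% lower.

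Genes that lie next to each other were compared in windows of 25 tested genes along the chromosomes, in the order of the RefSeq annotation. Over 14589 windows the median of the window medians was 0.03, with a 5% quantile of -0.51 and a 95% quantile of 0.39. The lowest window had a median of -1.70 and ran from PLPP6 to CCDC171, a stretch that holds JAK2, CD274 and PDCD1LG2 (PD-L2). In it 24 of 25 genes were called lower in UHO-1, 19 of them by at least 1 log2 unit, from -0.51 for UHRF2 to -3.73 for NFIB, and PTPRD (0.06, adjusted p = 0.774) was the exception. Genes of unlike function thus differed in the same direction there, the glycine-cleaving enzyme GLDC (-2.23), the demethylase KDM4C (-1.40) and the palmitoyltransferase ZDHHC21 (-2.05) among them. These neighbours were singled out after their values were seen.

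The highest window had a median of 1.33 and ran from ZNF649 to ZNF813, where 20 of 25 genes are zinc finger genes of the ZNF family. Of the 25, 20 were called higher and 2 lower in UHO-1, and 16 were higher by at least 1 log2 unit, with ZNF845 (4.85), ZNF841 (4.23) and ZNF611 (3.95) the largest. Genes of this family resemble each other in sequence, so probes may not tell every neighbour apart. The next lowest windows ran from SNORD21 to SLC30A7 (median -1.20), from NUP43 to ARID1B (-1.02) and from PPP2R5A to MARK1 (-0.96). The next highest ran from HLA-DPA1 to UQCC2 (0.94), from CDC42EP3 to LRPPRC (0.83), from H6PD to FBXO44 (0.81) and from CFAP36 to MDH1 (0.80), and the last 2 hold PIK3CD and REL. Copy number was not measured here, and its part in these runs was not tested.

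**Figure D5:**
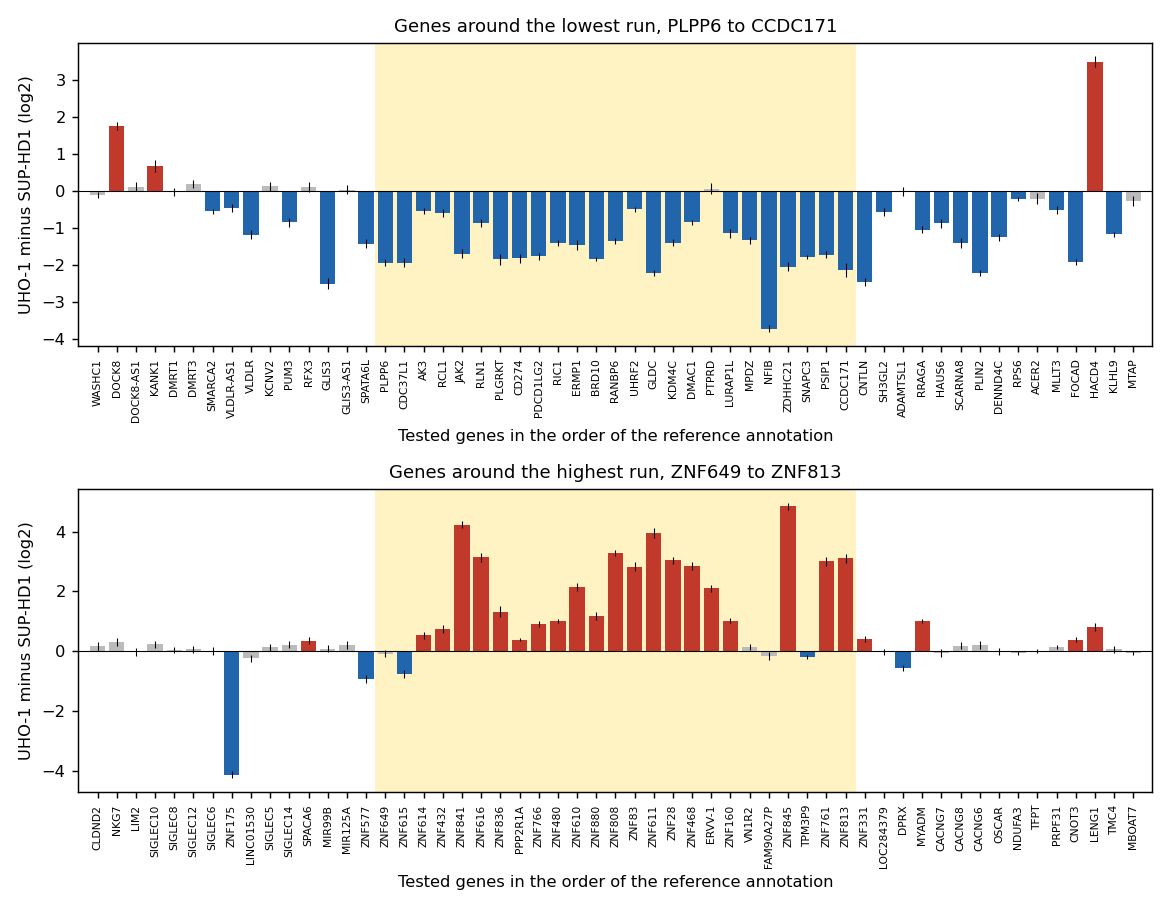
Difference UHO-1 minus SUP-HD1 (log2, bars with limma's SE) for tested genes in annotation order around the lowest and the highest window of 25 genes, which are shaded. Grey bars were not called, and the shaded genes of the upper panel are lower in UHO-1 except PTPRD.

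The line difference was similar in the arrays of the same lines that had received 4-OHT for 24 h. These arrays were not used for the vehicle values but entered the estimate of the spread. Of the 2337 genes called at 1 log2 unit or more, 2335 differed in the same direction there, and 2323 (99.4%) were also called. By the same rule of size, 2025 were called in the same direction at 1 log2 unit or more. Both sets of calls share the spread of the same fit, so they are not independent. MX1 differed by 6.03 in the 4-OHT arrays against 5.91 in vehicle, IL2RB by -5.32 against -4.44, PTPN1 by -2.33 against -3.38 and CCL22 by 4.27 against 4.70. These changes between treatments were not tested here.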

How the data were processed

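Gene expression was measured on Affymetrix Human Gene 1.0 ST arrays from amplified total RNA, per the labels' protocols. The values used are log2 expression values that the authors deposited after the robust multichip average (RMA), per the submitters' processing notes. This step corrects background, brings the arrays of a run to a common distribution and summarises probes. The treatment text of the labels names other fusion cells, so nothing was taken from it for these lines. Ranked values of any 2 of the 12 arrays from UHO-1, SUP-HD1 and L1236 differed by no more than 0.20 log2 units, and by at least 0.71 from those of the other 8 arrays, so only these 12 were used.

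Of 33268 probe sets, 19458 carried 1 symbol according to the platform's annotation, 1750 carried more and 12060 none. Of the 19458, 19427 matched the RefSeq table of GRCh38.p14, used for names, gene order and promoters. Where a gene had more than 1 probe set (767 of 18417), that of highest mean level was taken. The 15174 genes tested had a value of at least 5 on at least 2 of the 4 vehicle arrays. A model of 6 group means was fitted to the 12 arrays with limma 3.58.1 (R 4.3.3; eBayes with intensity trend), and p-values were adjusted over all 15174 genes by Benjamini-Hochberg. The script was tested on simulated data. Errors are limma's SE, which pools the spread of the 6 groups. Folds are 2 to the power of the log2 difference.

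The members, the 39 gene lists and the tests were chosen with earlier results of these data known. Genes were named if among the 15 largest calls in each direction, in a list of Hodgkin and B cell genes always named, among the 4 largest calls of a list, or needed for a count. HERC5, IFIT1, ISG15, IRF8, IRF9, CD83, PMAIP1, REL, IL1R1, IL1R2, PDCD1LG2 and the neighbours in the windows were singled out after their values were seen. Alternatives were other floors, normalisations, sets of arrays, probe set rules and window sizes, the replicate block, no intensity trend, and leaving out each array.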

Additional observations from a re-analysis of the deposited data

How the results depend on the processing

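The counts of called genes stayed within 1.5 times of the values given under every alternative run, at 7145 (a floor of 7, 9980 genes tested) to 8582 (quantile normalisation) for all calls and at 2011 to 2415 for calls of at least 1 log2 unit. Of the 2337 genes of that size, at least 2185 were shared by each alternative other than floors of 6 (2239) and 7 (2011), and 0 changed sign under any. Leaving out an array gave 7357 to 8086 calls and 2274 to 2415 of at least 1 log2 unit. Counts within the gene lists were less stable. Of 156 such counts, 40 moved by more than 1.5 times, or to or from 0, under some alternative (70 of 2496 values). With the replicate number as a block the counts over all genes were 8284 and 2337. The labels do not say that a number pairs arrays of different lines. The deviations of equal numbers correlated at 0.24 between UHO-1 and SUP-HD1, and in sign both ways over the 6 groups (-0.56 to 0.47), so the block was not used for the values given. Among named genes it changed 1 call, that of BCL6 (adjusted p = 0.0532 in limma).

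Of 219 named genes, 4 lost their call under some alternative (PAX5, BCL6, CDKN2A and CD3G), and 7 that were not called changed sign. Median centring gave -0.0481 for FOXO1, -0.055 for CD79B, -0.0488 for PARP14 and -0.0119 for PTPRD. Quantile normalisation gave -0.047 for CD79B and -0.0205 for IRF4, and cyclic loess -0.048 for CD79B and -0.0011 for PTPRD. Leaving out an array gave -0.0764 to 0.1174 for FOXO1, -0.0792 to 0.1062 for CD79B, -0.0191 to 0.2408 for FUT4, -0.2127 to 0.0039 for IRF1, -0.0858 to 0.1252 for PARP14 and -0.1106 to 0.2238 for PTPRD. PRDM1 passed in the 4 vehicle arrays alone (adjusted p = 0.00984) and after quantile normalisation (0.0423), POU2F2 without SUP-HD1 replicate 2 (0.41, 0.0278), and NFKBIA after quantile normalisation (0.00107) and cyclic loess (0.00351), all in limma. The cause was not tested. The lowest window median was -1.73 in windows of 15 genes and -1.30 in windows of 50, and the highest was 2.83 and 0.72, since longer windows take in more genes outside a run. The median from ZNF649 to ZNF813 was 1.72 and 2.50 at floors of 6 and 7, which leave fewer genes. With 2 arrays a line, small differences depend on single arrays, and values near the floor of 5 carry little signal above background.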

Other observations

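The glucose transporters also divided the lines. The glucose transporter SLC2A3 (GLUT3) read 11.28 and 11.24 in SUP-HD1 and 7.95 and 7.76 in UHO-1, while SLC2A1 (GLUT1) read 11.09 and 11.01 in UHO-1 and 9.46 and 9.46 in SUP-HD1. The differences were -3.40 ± 0.08 and 1.59 ± 0.06 (SE, n = 2 and 2; limma, adjusted p = 1.43e-15 and 2.58e-13), so each line was higher for a different transporter. Of 23 glycolysis genes tested, 8 were higher and 12 lower in UHO-1, with 4 and 3 of them by at least 1 log2 unit. HMGCS1, an early enzyme of cholesterol synthesis, read 10.15 and 10.09 in UHO-1 against 8.06 and 8.01. Of 18 cholesterol synthesis genes tested, 9 were higher and 5 lower, and 3 were higher by at least 1 log2 unit (HMGCS1, STARD4 and SC5D) against 0 lower, 16.7% of the list against 15.4% of all genes. Of 11 metallothioneins and zinc transporters, 5 were called lower in UHO-1 and 0 higher, led by MT1X (-1.41) and MT2A (-1.30). The share called was 45.5%, below the 54.8% of all genes, and 6 of the 11 were not called.

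Secreted and surface signals outside the T cell chemokines differed too. TNF read 11.10 and 11.15 in UHO-1 and 9.28 and 9.33 in SUP-HD1, and TNFSF9, the ligand of CD137, read 10.34 and 10.29 against 7.48 and 7.48. Of 35 genes of the TNF families tested, 15 were higher and 7 lower in UHO-1 (62.9% called, against 54.8% of all genes), with 7 and 2 of them by at least 1 log2 unit. The fractalkine gene CX3CL1 read 10.04 and 9.98 in UHO-1 against 6.98 and 7.01. The chemokines CCL1 and CCL2 were high in SUP-HD1 instead, CCL1 with 9.50 and 9.47 against 5.82 and 6.08, and CCL2 with 8.76 and 8.64 against 5.25 and 5.31. Each of these genes was separated by line on all arrays, which is common here. Both UHO-1 arrays lay above both SUP-HD1 arrays in 39.7% of all genes and below them in 34.9%. Single genes of epithelial and dendritic cells differed greatly, while their lists did not exceed the 15.4% of all genes. Large differences were found in 3 of 33 keratins and epithelial junction genes (9.09%) and in 3 of 20 myeloid and dendritic cell markers (15%). MUC1, a mucin, read 10.80 and 10.87 in SUP-HD1 against 6.58 and 6.50, the desmosomal cadherin DSG2 read 8.21 and 8.26 in UHO-1 against 4.11 and 4.07, and LAMP3, a marker of mature dendritic cells, read 10.20 and 10.37 in UHO-1 against 6.38 and 6.45. The homeobox gene LHX2 read 9.72 and 9.63 in UHO-1 against 5.85 and 6.40.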
